A study of Homo sapiens with 6 samples.

Results

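The islands described here were stretches of H3K4me3 enrichment that both conditions shared and that lay outside all annotated protein-coding genes. They were taken from H1 cells, an established human embryonic stem cell line, differentiated to endothelial cells that the sample labels call GATA2+. The labels name 2 conditions, derivation with Vc (Vc+) and derivation without it (Vc−), where Vc is vitamin C by the series title, and all groups share the H1 genotype. The series has 6 libraries, 1 each of H3K4me3, H3K27me3 and input for Vc+ and 1 each for Vc−, so no group has a replicate and no difference between the conditions was tested. An island belonged to the set if it was on chromosomes 1 to 22 of the Vc− H3K4me3 list, overlapped a Vc+ H3K4me3 island by at least 1 base, had a deposited score of at least 20 in both lists, and lay outside every protein-coding gene span extended by 10 kb on GRCh38. Of 15457 shared islands above that score, 1357 met the rule, and they are called intergenic islands here. The other 14100 lay within or beside protein-coding genes. The H3K4me3 lists held 21311 islands for Vc+ and 21583 islands for Vc− on these chromosomes. The presence of H3K4me3, its score in both libraries and the distance from coding genes chose the set: the islands were selected on these measured values, which are therefore no result.

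H3K4me3 is trimethylation of lysine 4 of histone H3, found around transcription start sites, most often at promoters rich in CpG dinucleotides. Outside coding genes it marks the starts of long non-coding RNA (lncRNA) genes, the primary transcripts of microRNAs (miRNAs), and genes for small structural RNAs such as transfer RNAs (tRNAs). H3K27me3, trimethylation of lysine 27, is laid down by Polycomb repressive complex 2 and covers silent developmental genes. A promoter that carries both marks in a population of cells is often called bivalent, although cells carrying different marks can give the same picture.

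Promoters of lncRNA genes at intergenic islands are shown first, with each CpG dinucleotide in capitals, because CpG content set these starts apart from other lncRNA starts. The windows run from 250 bases before to 50 bases after a start listed in RefSeq for GRCh38.p14, written 5′ to 3′ on the gene's strand. NORAD is on the minus strand at chr20:36050911-36051210 and MIR17HG on the plus strand at chr13:91347437-91347736, both under islands without H3K27me3. DLEU2 is on the minus strand and has a start at chr13:50125492-50125791, under an island with H3K27me3 in both conditions, and another at chr13:50081992-50082291, under an island without it. LOC100996660, on the minus strand at chr17:60135595-60135894, lay under an island with H3K27me3 in Vc+ alone, and LINC02249, on the plus strand at chr15:30195786-30196085, under one with H3K27me3 in Vc− alone.
NORAD: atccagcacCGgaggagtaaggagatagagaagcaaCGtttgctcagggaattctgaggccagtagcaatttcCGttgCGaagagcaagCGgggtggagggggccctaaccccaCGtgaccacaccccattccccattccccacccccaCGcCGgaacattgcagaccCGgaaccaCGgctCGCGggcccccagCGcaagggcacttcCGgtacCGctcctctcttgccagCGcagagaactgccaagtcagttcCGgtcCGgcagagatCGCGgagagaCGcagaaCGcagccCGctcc
MIR17HG: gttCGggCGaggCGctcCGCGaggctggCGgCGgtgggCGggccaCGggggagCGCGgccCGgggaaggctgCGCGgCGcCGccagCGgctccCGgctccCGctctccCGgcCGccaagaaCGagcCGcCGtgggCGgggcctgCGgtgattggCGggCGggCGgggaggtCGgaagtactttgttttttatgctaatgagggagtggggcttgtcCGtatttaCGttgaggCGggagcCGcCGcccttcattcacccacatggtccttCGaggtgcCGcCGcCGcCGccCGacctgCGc
DLEU2, start with H3K27me3: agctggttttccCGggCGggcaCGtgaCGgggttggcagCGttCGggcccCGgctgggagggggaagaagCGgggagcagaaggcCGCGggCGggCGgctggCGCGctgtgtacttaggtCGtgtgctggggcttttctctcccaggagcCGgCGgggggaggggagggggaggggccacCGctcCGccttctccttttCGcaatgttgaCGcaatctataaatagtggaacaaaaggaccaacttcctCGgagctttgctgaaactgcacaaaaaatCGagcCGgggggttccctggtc
DLEU2, start without H3K27me3: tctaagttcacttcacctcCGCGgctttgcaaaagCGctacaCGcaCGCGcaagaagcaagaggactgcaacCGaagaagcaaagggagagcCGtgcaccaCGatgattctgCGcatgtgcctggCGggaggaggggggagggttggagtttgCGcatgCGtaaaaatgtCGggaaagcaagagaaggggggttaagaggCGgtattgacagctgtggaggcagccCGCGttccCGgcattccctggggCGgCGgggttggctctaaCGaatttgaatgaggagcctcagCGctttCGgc
LOC100996660: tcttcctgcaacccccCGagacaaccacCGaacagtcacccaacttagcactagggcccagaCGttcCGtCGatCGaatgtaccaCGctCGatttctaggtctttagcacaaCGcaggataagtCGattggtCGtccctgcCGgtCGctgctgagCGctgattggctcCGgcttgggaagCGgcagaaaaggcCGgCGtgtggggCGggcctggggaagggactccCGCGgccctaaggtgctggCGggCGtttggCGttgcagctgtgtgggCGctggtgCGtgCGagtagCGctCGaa
LINC02249: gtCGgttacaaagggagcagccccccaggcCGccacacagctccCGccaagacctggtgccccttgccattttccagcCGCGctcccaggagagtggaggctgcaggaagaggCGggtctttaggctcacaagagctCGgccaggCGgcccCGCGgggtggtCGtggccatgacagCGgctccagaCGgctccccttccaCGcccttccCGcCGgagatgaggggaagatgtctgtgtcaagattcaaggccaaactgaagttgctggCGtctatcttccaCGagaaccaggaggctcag

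These windows held 23 CpG in NORAD, 42 in MIR17HG, 24 and 23 at the 2 DLEU2 starts, 29 in LOC100996660 and 18 in LINC02249. Each of these starts lay inside its island.

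Mature miRNAs encoded at intergenic islands are shown with the seed, bases 2 to 8, in capitals, since the seed is the part that pairs with target transcripts. The sequences are from RefSeq. miR-17-5p and miR-20a-5p share a seed, miR-19a-3p and miR-19b-3p share another, and miR-193a-3p and miR-193b-3p share one although their genes lie on chromosomes 17 and 16.
miR-17-5p: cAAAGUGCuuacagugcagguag
miR-20a-5p: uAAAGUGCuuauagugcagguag
miR-18a-5p: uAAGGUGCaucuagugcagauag
miR-19a-3p: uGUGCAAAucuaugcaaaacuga
miR-19b-3p: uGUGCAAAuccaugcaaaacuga
miR-92a-3p: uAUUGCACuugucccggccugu
miR-148a-3p: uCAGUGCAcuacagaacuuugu
miR-193a-3p: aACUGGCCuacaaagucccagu
miR-193b-3p: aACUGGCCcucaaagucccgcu
miR-9-5p: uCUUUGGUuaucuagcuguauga

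Depth is not known, since the files are lists of islands with no read counts, and scores of different libraries are not on a common scale. All 4 lists carry file names that give the opposite condition to their sample labels, and the groups here follow the labels, so a direction between Vc+ and Vc− rests on the labels being right. The series design text speaks of GATA2/eGFP+ and GATA2/eGFP− cells, while every label says GATA2+, and the extraction protocol names antibodies to H3K27me3 only. Of 12 endothelial marker genes, 11 had H3K4me3 at an end in each condition, against 1 of 7 blood markers and 0 of 4 pluripotency markers in each, and 3 in Vc+ and 4 in Vc− of 5 mesenchymal or smooth muscle markers. H3K27me3 was at an end of 5 of the 12 endothelial markers in Vc+ and 3 in Vc−. Of the intergenic islands, 251 (18.5%) lay no more than 5 Mb from the longest stretch of their chromosome that holds no annotated gene, used as a stand-in for the centromeric region, against 766 (5.43%) of the other shared islands. Island calls in repeated sequence depend on how reads that match several places were treated, which is not given in the sources used here, and this bears on satellites, tRNA and snRNA copies, and segmental duplications.

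Ends of lncRNA genes were the most frequent annotated feature at intergenic islands. An end of a lncRNA gene span lay within 1 kb of 446 of the 1357 islands (32.9%; exact 95% binomial interval 30.4% to 35.4%), against 3306 of the 14100 other shared islands (23.4%; 22.7% to 24.2%). All intervals cover counting error only and treat islands of 1 library as independent. Ends of tRNA genes, whose products carry amino acids to the ribosome, were at 108 islands (7.96%) and at 91 of the others (0.645%). Ends of snRNA genes, whose products act in splicing, were at 22 islands (1.62%) and at 20 of the others (0.142%). Transcribed pseudogenes had an end at 169 islands (12.5%) and at 171 of the others (1.21%). Other pseudogenes had an end at 103 islands (7.59%) and at 226 of the others (1.6%). For miRNA genes the shares were close, with 24 islands (1.77%) and 216 of the others (1.53%; 1.34% to 1.75%). Since an island can touch several genes, the islands were also sorted once each. Then 446 had a lncRNA end, 301 (22.2%) an end of another non-coding gene type and no lncRNA end, 136 (10%) lay inside a non-coding gene away from its ends, and 474 (34.9%; 32.4% to 37.5%) had no annotated non-coding gene. The exclusion of coding genes removes places where small RNA genes sit beside coding ones, so these shares describe intergenic space and not the gene types as a whole.

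**Figure D1:**
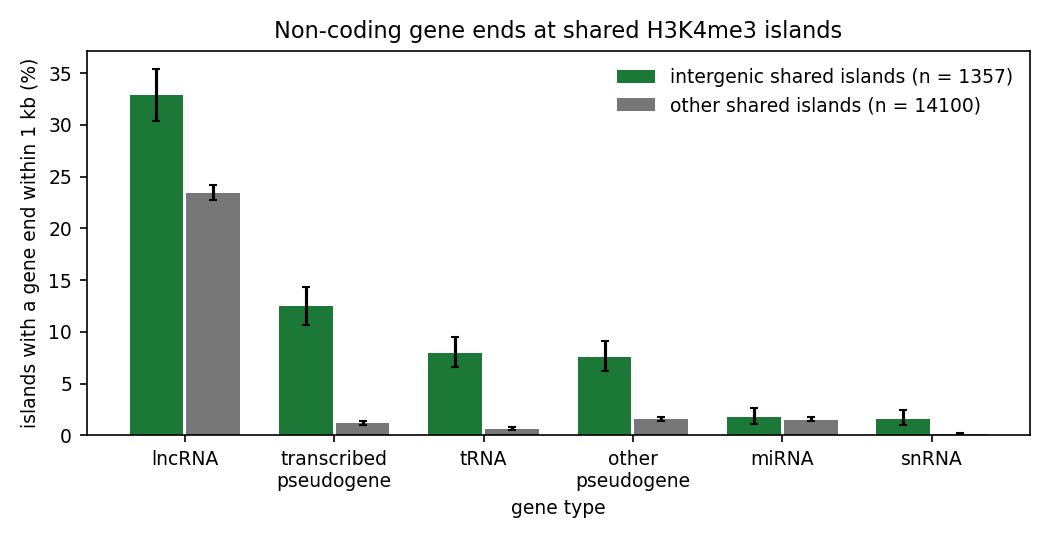
Share of islands (%) with a gene end within 1 kb, by gene type, for the 1357 intergenic islands and the 14100 other shared islands. Bars are shares and error bars exact 95% binomial intervals. The bars for tRNA stand at 7.96% and 0.645%, and those for miRNA at 1.77% and 1.53%.

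Counted from the genes, the order was different. Among genes outside the extended coding spans, 157 of 274 tRNA genes (57.3%; 51.2% to 63.2%) had an intergenic island within 1 kb of an end. The count was 24 of 89 snRNA genes (27%), 140 of 604 transcribed pseudogenes (23.2%), 30 of 429 miRNA genes (6.99%), 426 of 8174 lncRNA genes (5.21%; 4.74% to 5.72%) and 100 of 7419 other pseudogenes (1.35%). Most intergenic tRNA genes thus had a shared H3K4me3 island, while most intergenic lncRNA genes did not. Across chromosomes, intergenic islands made up 17.9% of the shared islands on chromosome 21 and 13.9% on chromosome 6, and 3.35% on chromosome 19, the lowest share.

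At lncRNA genes the islands sat on starts more than on the other end. Strand and start were listed for every lncRNA at 302 of the 446 islands, and 276 of these (91.4%) lay within 1 kb of a listed start, with 26 only at the other end. About 244 listed starts inside islands of both conditions and away from gene-free gaps, the Vc+ island reached a median of 0.742 kb upstream and 0.952 kb downstream. The Vc− island reached 0.676 kb upstream and 0.879 kb downstream. In both libraries the island thus extended further into the transcribed side. The CpG observed over expected ratio, in which 1 means as many CpG as the base composition gives, had a median of 0.749 in the 388 promoter windows with an intergenic island within 1 kb, and 272 of them (70.1%) reached 0.6. In 5485 intergenic lncRNA windows with no H3K4me3 island in either list the median was 0.196 and 283 (5.16%) reached 0.6. The median in protein-coding promoters was 0.743. The 388 windows belong to 338 genes at 303 islands, so some genes and islands count more than once. Windows at islands with H3K27me3 in both conditions had a median of 0.781 (n = 102) and those with it in neither 0.707 (n = 259).

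**Figure D2:**
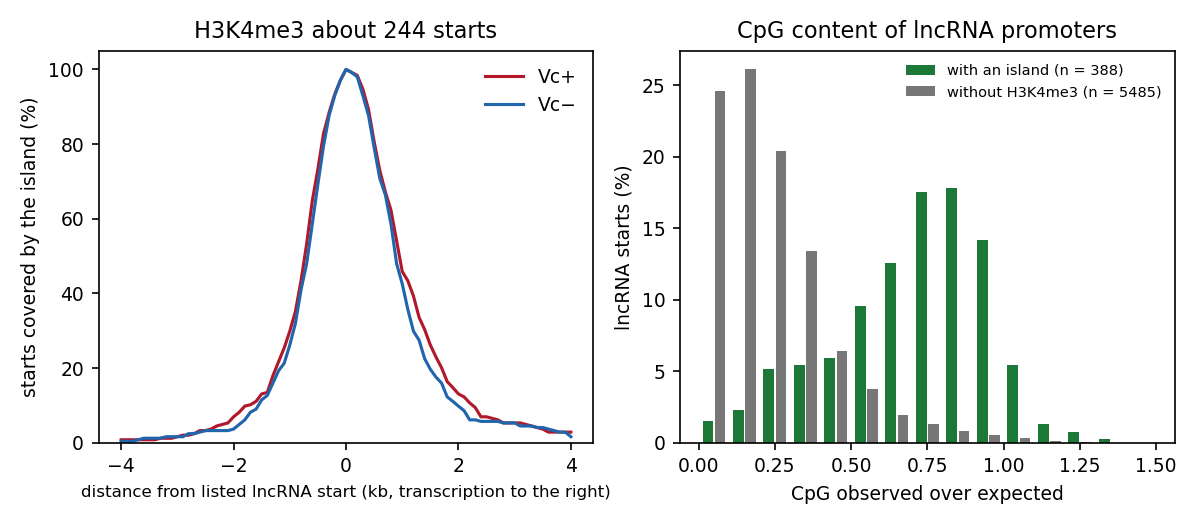
Left, share of 244 listed lncRNA starts (%) covered by the H3K4me3 island at each distance from the start (kb), for Vc+ and Vc−; the curves run close together and lean to the transcribed side. Right, share of lncRNA promoter windows (%) by CpG observed over expected ratio in steps of 0.1; the 388 windows with an intergenic island centre on 0.749 and the 5485 without H3K4me3 on 0.196.

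Short motifs were searched on both strands of the same windows, with matches to different motifs counted separately even where they overlapped. CCGGAAG, a core bound by ETS factors, was in 12.1% of windows with an intergenic island, 2.7% of intergenic lncRNA windows without H3K4me3 and 10.3% of all 33725 listed promoters. TATAAA was in 4.64%, 21.2% and 11.6% of the same sets, and AGATAA, a core bound by GATA factors, in 7.47%, 19.1% and 10.4%. Of the windows printed above, NORAD held CCGGAAG and the DLEU2 start with H3K27me3 held TATAAA. A window rich in CpG has fewer A and T bases, and no account of base composition was taken.

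Several well-studied lncRNA genes were among the members. MALAT1, an abundant nuclear lncRNA with a role in endothelial cells, lay under an island of 11.6 kb in Vc+ and 11 kb in Vc− (chr11:65496201-65507200) that covered the whole gene. NORAD, a cytoplasmic RNA that binds Pumilio proteins, had islands of 3.8 kb in Vc+ and 4.4 kb in Vc− (chr20:36047001-36051400). Neither had H3K27me3 in either condition. MIAT had islands of 2.2 kb in Vc+ and 1.6 kb in Vc−, DANCR of 2.6 kb and 1.8 kb, and PVT1, the neighbour of MYC, of 3.2 kb and 2.2 kb, each without H3K27me3. DLEU2, the host gene of miR-15a and miR-16, stood apart. Its island at chr13:50123201-50129200 was 5 kb wide in Vc+ and 6 kb in Vc−, and H3K27me3 islands of 18.6 kb in Vc+ and 10.4 kb in Vc− overlapped it. The island at its other start, chr13:50078401-50084000, shared with an end of DLEU1, was 4.8 kb in Vc+ and 5.6 kb in Vc− with no H3K27me3.

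Lists of lncRNA genes give the wider picture, where a gene had an intergenic island if one lay within 1 kb of an end. Islands inside a gene away from its ends were not counted, as at the miRNA host genes MIR9-1HG and MIR9-2HG. Of 21 lncRNA genes with endothelial or vascular roles found in the gene table, 5 had an intergenic island, 7 were intergenic without one and 9 lay within 10 kb of a coding gene. Of 17 blood lncRNA genes the counts were 5, 6 and 6, and of 36 miRNA host genes 6, 14 and 16. Of 14 lncRNA genes studied in pluripotent cells 4 had an intergenic island, and of 14 imprinted lncRNA genes 0 did, with 6 of those intergenic. Among all 8174 intergenic lncRNA genes 5.21% had one. The lists overlap, with PVT1 in the endothelial and blood lists and MIR4435-2HG in the blood and host lists. TALAM1, in the endothelial list, shares the MALAT1 island and is not among the 8174. LNCPRESS1, from the pluripotency list, had islands of 1 kb in both conditions with H3K27me3 islands of 6.8 kb in Vc+ and 5 kb in Vc−. The other 3 of that list, DANCR, LINC01356 and LINC02315, had no H3K27me3 in either condition.

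Among miRNA hosts, MIR17HG, which makes the miR-17-92 cluster linked to cell proliferation, had an island of 4.2 kb in Vc+ and 4.8 kb in Vc− (chr13:91346801-91351600). The Vc+ island ended at 91351200, with the MIR92A1 hairpin and most of the MIR19B1 hairpin outside it, and the Vc− island held the start and all 6 miRNA hairpins. H3K27me3 was 44.2 kb away in both conditions. MIR193BHG, with the miR-193b hairpin inside its island, measured 3.4 kb in Vc+ and 2.4 kb in Vc−, and MIRLET7A1HG 3.2 kb and 2.2 kb, also without H3K27me3. MIR34AHG, host of miR-34a, had islands of 5 kb in Vc+ and 4.8 kb in Vc−, with H3K27me3 islands of 2 kb and 2.4 kb. MIR31HG had islands of 1.4 kb in Vc+ and 2 kb in Vc−, with H3K27me3 islands of 4.8 kb and 3.4 kb. MIR4435-2HG, the remaining listed host, had islands of 2.6 kb in Vc+ and 2 kb in Vc− and no H3K27me3.

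Islands at miRNA genes were read in full after their values were seen. Of the 24, 11 overlapped H3K27me3 in each condition (45.8%; 25.6% to 67.2%), where 30.1% of all intergenic islands did in Vc+ and 27.3% in Vc−, and 22.2% and 20.5% of all shared islands. The interval holds both shares of all intergenic islands. Only 19 of the 24 lay away from gene-free gaps. Near gaps, the islands at MIR6724-2, MIR6724-4 and MIR663A overlapped H3K27me3 in both conditions, and the one at MIR4449 in neither. MIR9-1, which makes the neural miR-9, had an island of 1.2 kb in Vc+ and 1.8 kb in Vc− (chr1:156420401-156422200) within H3K27me3 islands of 31 kb in Vc+ and 25.4 kb in Vc−. MIR124-3, a gene of the neural miR-124, had islands of 2.8 kb in Vc+ and 2 kb in Vc− with H3K27me3 islands of 9 kb and 7.2 kb. The MIR9-1 hairpin, at chr1:156420341-156420429, lay outside the Vc+ island, which began at 156421401, and partly inside the Vc− island. The island at MIR148A measured 2.4 kb in Vc+ and 3 kb in Vc− (chr7:25949601-25952600) and had no H3K27me3. The island at MIR193A was 2 kb wide in both conditions (chr17:31558601-31560600), lay near the gene-free gap and had an H3K27me3 island of 1.2 kb in Vc+ and none in Vc−.

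Intergenic islands gathered at arrays of small RNA genes. Of the 1357 islands, 209 (15.4%) had another within 10 kb and 459 (33.8%) within 50 kb. The 108 islands at tRNA genes touched 157 of the 274 tRNA genes outside the extended coding spans (57.3%). On chromosome 6 it was 71 of 134 and on chromosome 1 it was 44 of 66. The most frequent kinds were leucine (17 genes), valine (13) and glycine (12) tRNAs. How many genes of each kind lay outside the extended coding spans was not counted. On chromosome 6, 53 of the 56 tRNA islands lay between 26 and 29 Mb. Median width at tRNA genes was 2.2 kb in Vc+ and 1.8 kb in Vc−.

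H3K27me3 differed from array to array. The largest group, chr6:27495001-27694800 near ZNF184, held 18 islands, 15 at tRNA genes, and 4 overlapped H3K27me3 in each condition. At chr6:26720601-26781000 near ZNF322 all 7 islands were at tRNA genes, and 6 overlapped H3K27me3 in Vc+ and 7 in Vc−. At chr1:161389401-161473800 near FCGR2A there were 8 islands, 7 at tRNA genes, and 6 overlapped H3K27me3 in each condition; the H3K27me3 islands there covered 51.8 kb in Vc+ and 44.6 kb in Vc− of the 84.4 kb. Successive islands there hold copies of the same aspartate, glutamate, glycine and leucine tRNA genes, so calls at single copies are uncertain. At chr6:27176001-27334000 near PRSS16, 1 of 8 islands did so in each. Away from chromosomes 1 and 6, 4 of the 29 tRNA islands overlapped H3K27me3 in each condition (13.8%), against 12 (52.2%) in Vc+ and 11 (47.8%) in Vc− of the 23 on chromosome 1.

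The group at chr17:43245601-43369600 near CCDC200 held 11 islands, 9 at snRNA genes, all between 1 kb and 3 kb wide in both conditions, and no H3K27me3 island lay in the whole 124 kb in either list. At chr7:148940601-148988400 the 4 islands stood one each at RNY5, RNY4, RNY3 and RNY1, the genes of the Y RNAs, which are small cytoplasmic RNAs transcribed by RNA polymerase III. Their widths were 1.2, 0.4, 2 and 2 kb in Vc+ and 1.6, 0.6, 1.8 and 1.6 kb in Vc−, without H3K27me3, and the coding gene nearest to RNY5 was EZH2, which encodes the catalytic subunit of Polycomb repressive complex 2. At chr1:148262801-148403200, a group of 9 islands near PPIAL4G with 3 at tRNA and 2 at snRNA genes, 4 overlapped H3K27me3 in Vc+ and 1 in Vc−.

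**Figure D3:**
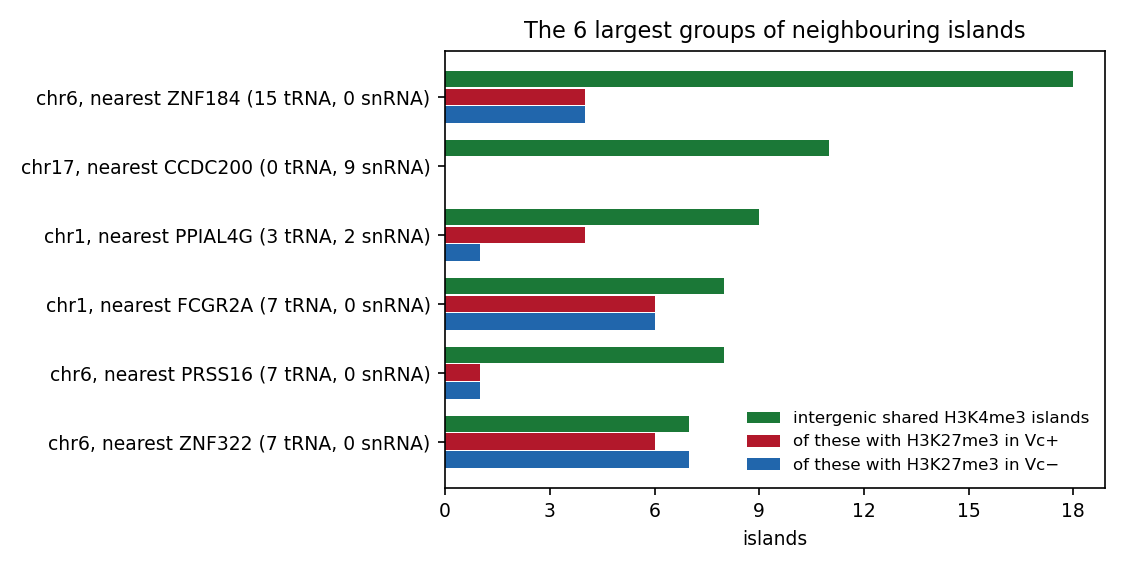
Number of islands in the 6 largest groups of neighbouring intergenic islands, and how many of them overlapped H3K27me3 in Vc+ and in Vc−. Each group is named by chromosome and nearest coding gene, with its islands at tRNA and snRNA genes. The chromosome 17 group has 11 islands and none with H3K27me3, and the chromosome 6 group near ZNF322 has 6 in Vc+ and 7 in Vc− of 7.

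H3K27me3 lay over more of the intergenic islands than of the other shared islands. In Vc+ 409 of 1357 (30.1%; 27.7% to 32.7%) overlapped an H3K27me3 island by at least 1 base, where 22.2% of all shared islands did. In Vc− it was 370 (27.3%; 24.9% to 29.7%), where 20.5% of all shared islands did. Of the other shared islands, 21.5% overlapped H3K27me3 in Vc+ and 19.8% in Vc−. Both conditions had the overlap at 347 intergenic islands (25.6%, against 19% of all shared islands) and neither at 925 (68.2%). Median coverage of an overlapped island was 100% of its length in Vc+ and in Vc−. Away from gene-free gaps the shares of intergenic islands were 29.1% in Vc+ and 26.2% in Vc−, and near the gaps 34.7% and 31.9%.

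Island width moved with the overlap, and the part of width in the difference between intergenic and other islands was not tested. Among islands up to 1 kb wide in Vc− and away from gaps, 31.5% of 308 intergenic islands overlapped H3K27me3 in Vc+ and 28.9% in Vc−, against 37% and 36.1% of 1152 other islands. From 1 to 2 kb the shares were 30.3% and 26.1% of 571 intergenic islands, against 25.5% and 23.4% of 5696 others. From 2 to 4 kb they were 20.5% in both conditions of 200 intergenic islands, against 15.6% and 14.4% of 5410 others. Above 4 kb 11 of 27 intergenic islands (40.7%; 22.4% to 61.2%) overlapped it in each condition, against 13.5% and 11.4% of 1076 others. Among islands up to 1 kb wide the shares of intergenic islands were thus the lower ones, with overlapping intervals. In the 1 to 2 kb class the intervals overlapped for Vc− and just met for Vc+. In the 2 to 4 kb class they overlapped in both conditions, and only above 4 kb did they stand apart.

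By annotation, 25.3% of islands at lncRNA ends overlapped H3K27me3 in Vc+ and 21.5% in Vc−. Islands without an annotated non-coding gene had 33.3% in Vc+ and 30.6% in Vc−, and islands at ends of pseudogenes with no listed transcription 41.7% and 40.8%. At snRNA genes it was 2 of 22 (9.09%) in each condition. The intervals of most types overlapped each other.

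**Figure D4:**
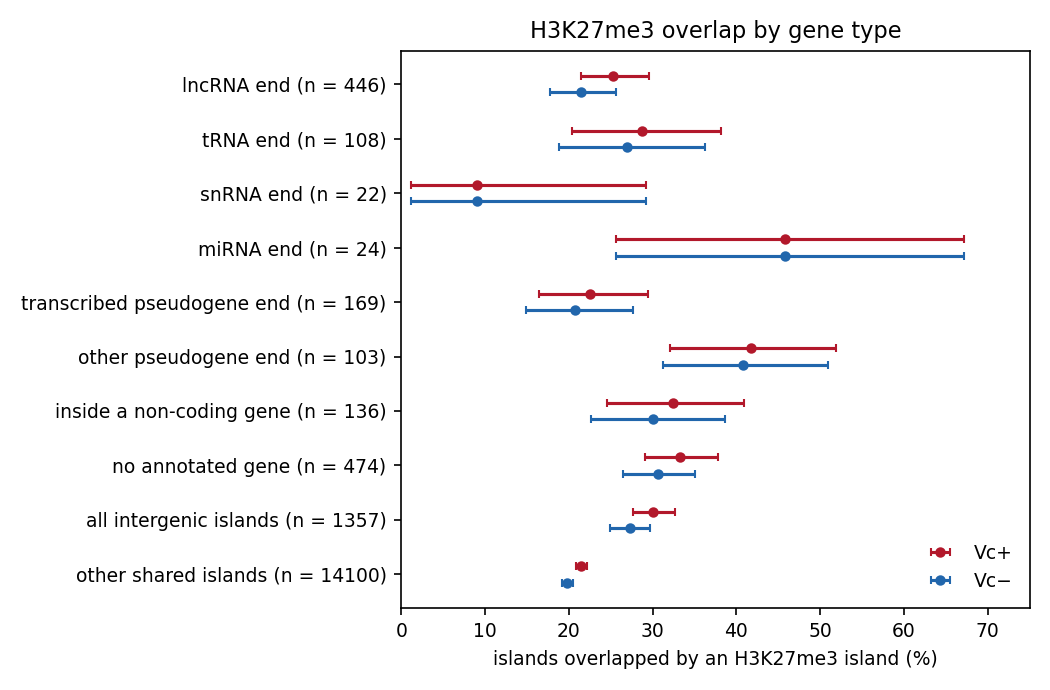
Share of islands (%) overlapped by an H3K27me3 island in Vc+ and Vc−, for intergenic islands by the type of gene end within 1 kb, for all 1357 and for the 14100 other shared islands. Points are shares and bars exact 95% binomial intervals; all intergenic islands stand at 30.1% in Vc+ and 27.3% in Vc−, to the right of the other shared islands.

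Most islands had the same H3K27me3 state in both lists, and 85 did not. H3K27me3 was found in Vc+ alone at 62 intergenic islands (4.57%, against 3.21% of all shared islands) and in Vc− alone at 23 (1.69%, against 1.44%). Of these 85, 72.9% were in Vc+ alone (62.2% to 82%), and of the 633 such islands among the other shared ones 68.6% were (64.8% to 72.2%), so the lean toward Vc+ was not particular to intergenic islands. The H3K27me3 scores behind these calls were low, with a median of 10.6 at the 62 and 12.1 at the 23, against medians of 37.5 in Vc+ and 40.1 in Vc− over all overlapped intergenic islands. At 42 of the 62 no Vc− H3K27me3 island lay within 10 kb, and at 14 of the 23 no Vc+ one did.

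The highest-scoring islands with H3K27me3 in Vc+ alone included an end of LINC01128 and LINC00115 (chr1:826601-828400), with H3K4me3 of 3.6 kb in Vc+ and 1.8 kb in Vc− and an H3K27me3 island of 1.4 kb in Vc+. At LINC03057, 18.8 kb from the homeobox gene HOXB9, H3K4me3 measured 3.4 kb in Vc+ and 2.6 kb in Vc−. An H3K27me3 island of 5 kb in Vc+ overlapped it by 0.2 kb, with a Vc− H3K27me3 island 2.6 kb away. At LOC100996660 an H3K27me3 island of 7.8 kb in Vc+ overlapped it by 1 kb, with a Vc− H3K27me3 island 1 kb away. Others lay near NOTO, TBX20, HNRNPD, BTN3A2 and RAET1L. A Vc− H3K27me3 island abutted the one near RAET1L, lay 0.201 kb from the one near TBX20 and 1.2 kb from the one near NOTO. Another 2, at LINC00623 and LINC01145, were near the gene-free gap of chromosome 1. With H3K27me3 in Vc− alone, an island 78.6 kb from PAX2 was 3 kb wide in both conditions and overlapped by 1.4 kb of a 6.8 kb H3K27me3 island. A Vc+ H3K27me3 island lay 0.401 kb from it and as far from the LINC02249 island. LINC02249 (1.8 kb in both, H3K27me3 island of 6.6 kb) and LINC00636 (1.2 kb in Vc+ and 1 kb in Vc−, H3K27me3 island of 2.4 kb) were the lncRNA ends among the 10 highest-scoring in Vc− alone. The rest of those 10 included the tRNA genes TRL-TAG2-1 and TRM-CAT4-2, with a Vc+ H3K27me3 island 26.2 kb and 2.4 kb away.

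The median distance from an intergenic island to the nearest protein-coding gene was 40.5 kb. It was 10 to 50 kb for 775 islands (57.1%), 50 to 100 kb for 263, 100 to 500 kb for 264 and over 500 kb for 55. Away from gaps, H3K27me3 overlapped 28.6% of the nearest class in Vc+ and 25.5% in Vc−. It overlapped 31.5% in Vc+ and 29.2% in Vc− of those at 50 to 100 kb, 30.9% and 27.6% of those at 100 to 500 kb, and 5 of 35 of the farthest class (14.3%; 4.81% to 30.3%) in each. Nearest genes shared the mark in part. Of 322 islands with H3K27me3 in Vc+ and away from gaps, 117 (36.3%; 31.1% to 41.9%) had a nearest coding gene with H3K27me3 at an end in Vc+, against 142 of 784 islands without the mark (18.1%; 15.5% to 21%). In Vc− the counts were 97 of 290 (33.4%) and 131 of 816 (16.1%). Some islands share a nearest gene, so these intervals count some genes more than once. With each nearest gene counted once, the shares were 89 of 265 (33.6%) and 126 of 669 (18.8%) in Vc+. In Vc− they were 80 of 243 (32.9%) and 114 of 686 (16.6%). Over all 19126 coding genes 17.1% had H3K27me3 at an end in Vc+ and 15.7% in Vc−. A single H3K27me3 island reached from the intergenic island to within 1 kb of its nearest coding gene at 15 of the 322 in Vc+ (4.66%) and at 10 of the 290 in Vc− (3.45%).

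Developmental regulators, a list of homeobox, forkhead, SOX, T-box and related gene families matched by symbol, were the nearest coding gene of 82 islands (6.04%), at 60 genes, and make up 1.89% of coding genes. Of those 82, 56 (68.3%; 57.1% to 78.1%) overlapped H3K27me3 in Vc+ and 52 (63.4%; 52% to 73.8%) in Vc−. Of the 1275 islands nearest any other coding gene it was 353 (27.7%; 25.2% to 30.2%) in Vc+ and 318 (24.9%; 22.6% to 27.4%) in Vc−. A gene in wide intergenic space has more chance to be nearest. The space around these genes was not measured, and its part in these shares was not tested. Zinc finger genes, 2.75% of coding genes, were nearest to as many islands, 82 (6.04%). Of these, 26 (31.7%) overlapped H3K27me3 in Vc+ and 25 (30.5%) in Vc−. Only 55 of the 82 nearest zinc finger genes lay away from gene-free gaps, against 77 of the 82 nearest developmental regulators.

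Genes nearest to 3 or more developmental-class islands were named after their values were seen. NR2F2, the nuclear receptor COUP-TFII that specifies venous endothelium, was nearest to 6 islands, 16.1 to 644 kb away. Of these, 4 overlapped H3K27me3 in Vc+ and 3 in Vc−. The pair closest to the gene, inside the lncRNA gene LOC101927263, measured 1.4 and 2.6 kb in Vc+ and 1.2 and 1.6 kb in Vc−, under one H3K27me3 island of 65.2 kb in Vc+ and of 31.4 kb in Vc−. The farthest, of 0.8 kb in Vc+ and 1.2 kb in Vc−, had H3K27me3 in Vc+ alone, in an island of 2.2 kb. NFIA had 4 islands within 19 to 33.4 kb, all 4 with H3K27me3 in Vc+ and 3 in Vc−. ASCL4 had 4 islands 66.6 to 136 kb away, 3 with H3K27me3 in each condition. ID4 and ZFHX3 were the genes nearest to 2 islands of which none overlapped H3K27me3 in either condition.

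Of 41 blood regulators, which make up 0.214% of coding genes, 6 were the nearest gene of 7 islands (0.516%). Of 52 endothelial and arterial genes, 0.272% of coding genes, 6 were nearest to 12 islands (0.884%), of which 6 had NR2F2 as the nearest gene. An island 11.8 kb from CD34, a surface sialomucin of blood progenitors and endothelium, was 1.8 kb wide in Vc+ and 1 kb in Vc− (chr1:207868201-207869200) and had no H3K27me3. An island 10.7 kb from GATA3, a T cell and developmental transcription factor, was 2.8 kb in Vc+ and 1 kb in Vc−, with H3K27me3 islands of 13.4 kb in Vc+ and 8.6 kb in Vc−. An island 35.5 kb from FLT1, which encodes VEGF receptor 1, lay at LOC124903142 and measured 3 kb in Vc+ and 2.8 kb in Vc− without H3K27me3.

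At FLT4, which encodes VEGF receptor 3 of lymphatic endothelium, an island 23.1 kb away was 1.4 kb wide in both conditions under H3K27me3 islands of 5.4 kb in Vc+ and 2.6 kb in Vc−. Both islands nearest MEF2C, 41.9 and 55.5 kb away and inside the miRNA host gene MIR9-2HG, lay under an H3K27me3 island of 40.6 kb in Vc+ and 40.8 kb in Vc−. Islands nearest FOXF1 and RUNX2 also carried H3K27me3 in both conditions. Those nearest CEBPB, SPN and HEY1 carried it in neither.

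Among islands with no gene end within 1 kb, those of highest score away from gaps had no H3K27me3 in either condition at chr10:90294801-90302800, 438 kb from HTR7, and at chr7:128529801-128533600, 23.2 kb from METTL2B. The first was 8.8 kb wide in Vc+ and 8 kb in Vc−, where away from gaps it was next in width to MALAT1, and the second was 3.2 kb in Vc+ and 3.8 kb in Vc−. An island 24.5 kb from CHD7, a chromatin remodeller gene, was 3.8 kb in Vc+ and 3.2 kb in Vc−, with H3K27me3 islands of 5.4 kb and 3 kb. At chr4:180057001-180060000, 1388 kb from TENM3, the island was 2.8 kb in Vc+ and 3 kb in Vc−, with H3K27me3 islands of 5.8 kb and 3.2 kb. At chr11:38219201-38221600, 1560 kb from IFTAP, it was 2.6 kb in Vc+ and 2.4 kb in Vc− with none.

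Intergenic islands were narrower than other shared islands and close to equal in width between conditions. Their median width was 1.6 kb in Vc+ and 1.4 kb in Vc−, against 2.4 kb and 2 kb for the other shared islands. The median ratio of Vc+ to Vc− width was 1 for intergenic islands and 1.1 for the others. In Vc+ 625 intergenic islands were wider, 438 narrower and 294 the same. The ratio reached 1.5 at 178 (13.1%), where 13.7% of all shared islands did, and was 1/1.5 or less at 90 (6.63%), where 3.31% of all shared islands did. The share that was much wider in Vc+ was thus at the background, and the share much narrower was above it. Widths come in steps of 200 bp, so a narrow island passes these ratios with few steps.

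The largest ratios were 14.9 kb from TFAP2A (2.6 kb in Vc+ and 0.6 kb in Vc−), at LOC105371723 near CRLF3 (6.2 kb and 1.6 kb) and in the gene-free stretch of chromosome 1 (91.4 kb and 25.2 kb). In each of these cases a wide Vc+ island joined what the Vc− list splits. Of the 1357 islands, 16 shared a Vc+ island with another, so the set has 1349 distinct Vc+ islands. The smallest ratios were at LOC124904263 (0.6 kb in Vc+ and 2.2 kb in Vc−), near LOC124904394 on chromosome 1 (0.6 kb and 1.8 kb) and at LINC01143 near VAX2 (1 kb and 2.6 kb), where H3K27me3 islands of 43.2 kb in Vc+ and 36.6 kb in Vc− overlapped it.

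**Figure D5:**
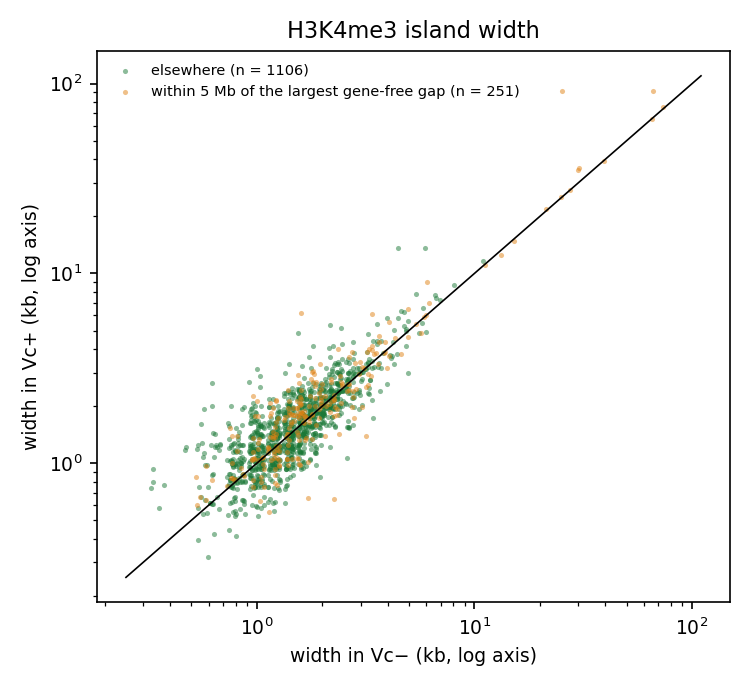
Width of each intergenic island in Vc+ (kb, log axis) against its width in Vc− (kb, log axis), with the line of equal widths; points are moved by up to 0.08 kb so that they do not hide each other. Orange points lie no more than 5 Mb from the longest gene-free stretch of the chromosome, and the widest, up to 91.4 kb in Vc+ and 73.6 kb in Vc−, are all of that kind.

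The 10 widest islands by Vc− width all lay near gene-free gaps and all overlapped H3K27me3 in both conditions. They included chr10:41842801-41916400 (75.2 kb in Vc+ and 73.6 kb in Vc−), chr4:49091001-49156600 (65.4 kb and 65.6 kb) and a pair on chromosome 1 from 143184601 to 143276200 under a single Vc+ island of 91.4 kb. On chromosome 21, 3 islands between 8222601 and 8472200 measured 35, 36 and 27.6 kb in Vc+ and 30, 30.4 and 27.4 kb in Vc−. The last 2 lay at the ribosomal RNA genes RNA45SN1, RNA18SN1 and RNA28SN1. Both marks had nearly the same outlines at the chromosome 10 island named, where H3K27me3 islands were 73.6 kb in Vc+ and 73.4 kb in Vc−. At the chromosome 4 island they were 67.6 kb and 68 kb. H3K27me3 reached further at the first chromosome 21 island, with 58.8 kb in Vc+ and 51.2 kb in Vc−.

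Membership turns on 2 thresholds. The 5 islands just inside the score limit had lower scores of 20 to 20.1 and the 5 just outside 19.8 to 20 after rounding. The 5 just inside the distance limit lay 10.01 to 10.044 kb from a coding gene, nearest MLPH, and the 5 just outside 9.889 to 9.976 kb, nearest ZBTB42 at the lower end.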

How the data were processed

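Chromatin immunoprecipitation sequencing of H3K4me3 and H3K27me3 was read from 4 deposited island lists, 1 for each mark and condition; input libraries have no list here. The submitters' processing notes name Bowtie2, SICER, deepTools and hg38, with no versions, settings or order. The deposited score column was read from its range as −log10 of a false discovery rate, capped at 1000; the files hold no header that states it. Deposited starts and ends were both shifted by 1 to count from 1. The deposited end was read as the last base of the island, and all widths rest on that reading. Python 3.11.15 with pandas 2.3.3 and numpy 2.4.6 selected islands and counted overlaps, with member and overlap counts checked by bedtools 2.31.1 and with simulated islands; intervals are exact Clopper-Pearson intervals from scipy 1.17.1. Gene spans and promoters are RefSeq GRCh38.p14, with 56756 genes of which 19126 are protein-coding on chromosomes 1 to 22. The gene table gives no strand and places genes of unlocalized scaffolds at low coordinates of their chromosome. Each mark and condition has 1 library, so no test was made.

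The named islands are the 10 widest, those at listed lncRNA ends, the 10 of highest score in each H3K27me3 class, those of the 5 largest and 5 smallest width ratios, the 5 farthest from coding genes, those nearest listed blood and endothelial genes, and the 10 of highest score without a gene end; a selection of these is described. The members and lists were chosen with earlier results of these data known. Alternatives changed the score limit, the coding extension, the overlap, the list of origin, the lncRNA window and the H3K27me3 threshold.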

Additional observations from a re-analysis of the deposited data

How the results depend on the processing

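Of 68 recomputed main values under 14 alternatives, 51 stayed within the interval of the first value, or within 1.5 times of a count. Only the difference between the counts with H3K27me3 in Vc+ alone and in Vc− alone could change sign, and it did not. The alternative that left out islands in the first 1 Mb of a chromosome, where the gene table places scaffold genes, was chosen after seeing the data. A score of at least 50 left 602 islands, with 37.9% at lncRNA ends, H3K27me3 at 25.2% in Vc+ and 23.9% in Vc−, and 8 more islands with it in Vc+ alone than in Vc− alone, against 39 more in the main set. A score of at least 10 put 29.9% at lncRNA ends. Extending coding genes by 5 kb gave a median distance of 29.9 kb, and by 50 kb 582 islands, a median of 110 kb, H3K27me3 at 29.7% in Vc− and 15 more in Vc+ alone. Without islands near gene-free gaps the median distance was 35.9 kb. A window of 2 kb put 36.2% at lncRNA ends, and any non-coding gene in place of lncRNA gave 55%. H3K27me3 over 0.5 or more of the island's length gave 24.6% in Vc−, and H3K27me3 islands with score of at least 10 gave 26.9% in Vc+ and 24 more in Vc+ alone. Cutting the longer H3K27me3 list to the covered length of the other left 58 islands in Vc+ alone and 25 in Vc− alone. Of 16 further values, shares of tRNA ends and of islands with no non-coding gene end, 5 moved: tRNA ends were 11.6%, 6.4% and 6.36% at scores of 50 and 10 and at 50 kb, and no such end 35% and 51.3% at scores of 50 and 10, against 7.96% and 45%. The cause of these moves was not tested. No paired analysis was possible because each mark and condition has 1 library. Read depth limits every island call and is not known here.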
